A study of Sus scrofa with 5 samples.

Results

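Locus totals of the additional molar germ at embryonic day 70 (E70) were compared with those at embryonic day 60 (E60) in miniature pigs. A locus is an interval of the genome that holds the transcripts assembled there, and its total at a stage is the sum of the FPKM of those transcripts (the number of sequenced fragments relative to transcript length and library size). Every locus of the deposited table was a member, so that 18696 of 18696 loci with 45614 transcripts were used. Loci with 1 transcript (8168) and loci with several transcripts (10528) were described apart.

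Additional molars are the permanent molars, which bud from the dental lamina behind the deciduous teeth. The germs came from wild type miniature pig embryos and were dissected from the mandible with the dental lamina attached. RNA was pooled over germs of a stage, taken from the same litter. The first molar was at the bell stage at E60, when the second molar began to form, and had reached the late bell stage at E70. The labels list 1 sample at E60 and 3 at E70, but the table gives 1 merged value per stage. The comparison therefore has no replicate check, no test was made, and differences between animals cannot be told apart from differences between stages. In a pooled germ, fewer cells of a type and less RNA per cell cannot be told apart either.

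At the bell stage the enamel organ folds into the shape of the crown, and its inner layer and the facing dental papilla prepare to become the ameloblasts that lay down enamel and the odontoblasts that lay down dentine. A gene often gives several transcripts that differ in their exons, and an assembler has to divide the reads of shared exons among them. The total of a locus depends less directly on that division than a single transcript does. Each FPKM is divided by the length of its own transcript, so the total still moves with the division.

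The deposited values of the 2 stages stood apart before any locus was considered. The totals summed to 3117182 FPKM at E60 and to 86548471 FPKM at E70. The 10 highest loci made up 37.5% of the sum at E60 and 74.3% at E70, and 7 loci at E70 were listed above 1000000 FPKM, against 0 loci at E60. FPKM is relative to transcript length, so a value that high need not mean a matching amount of RNA. Transcript lengths were not used here, and whether these values reflect amounts of RNA was not tested. The E70 sum and the share of its 10 highest loci rest largely on them. At the same time fewer loci were detected at the later stage, with 15627 loci above 0 FPKM at E60 and 10541 at E70. The median locus thus had 9.57 FPKM at E60 and 0.207 FPKM at E70, while 322 loci at E60 and 1300 loci at E70 reached 1000 FPKM. The methods of the study name quantile normalization as a step ahead of its statistics, but the deposited values of the stages do not share their quantiles, and whether the stages were scaled alike is not known. The study also reports that a larger share of reads mapped to the Wuzhishan pig assembly at E60 than at E70 or E50. It lists more assembled transcripts at E60 than at either as well. The part of these differences and of the authors' scaling in this contrast was not tested. The table holds no read counts, so that the number of reads behind a value cannot be taken from it, and the read totals per stage that the study gives were not used here.

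Changes were computed as log2(FPKM + 1) at E70 minus that at E60, a scale that understates changes of low totals, and a locus was called changed when it moved by 2-fold or more on that scale. Most changed loci were lower in the older germ. Over all loci, 3211 were higher at E70 (17.2% of loci) and 9187 were lower (49.1%), with a median change of -0.90. Among loci with 1 transcript, 455 were higher (5.57%) and 2735 lower (33.5%), so that 14.3% of the changed loci of this class were higher (Wilson 95% interval 13.1% to 15.5%, which covers counting over loci only). Among loci with several transcripts, 2756 were higher (26.2%) and 6452 lower (61.3%), and 29.9% of the changed loci were higher (29.0% to 30.9%).

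These splits moved with the scaling of the stages. The share higher among changed loci with 1 transcript was 14.3% as deposited, 31.3% with the stages scaled to the same median, 55.0% after quantile normalization and 3.19% with the stages scaled to the same sum. Among loci with several transcripts the corresponding shares were 29.9%, 47.1%, 49.0% and 6.54%. The median change over all loci shifted from -0.90 by 0.85 with the median scaling, by 1.46 with quantile normalization (which gives a change of 0.71 to loci listed at 0 at both stages) and by -2.98 with the sum scaling. Quantile normalization matches ranks across the stages, and 8155 loci were at 0 at E70 against 3069 at E60. It therefore raises low E70 totals, so that a locus can turn higher there without a higher deposited total. The sum scaling leans on the highest totals at E70, whose standing as amounts of RNA was not tested. Directions below are those of the deposited values, and changes of named loci are given without subtracting the median of -0.90 over all loci.

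**Figure D1:**
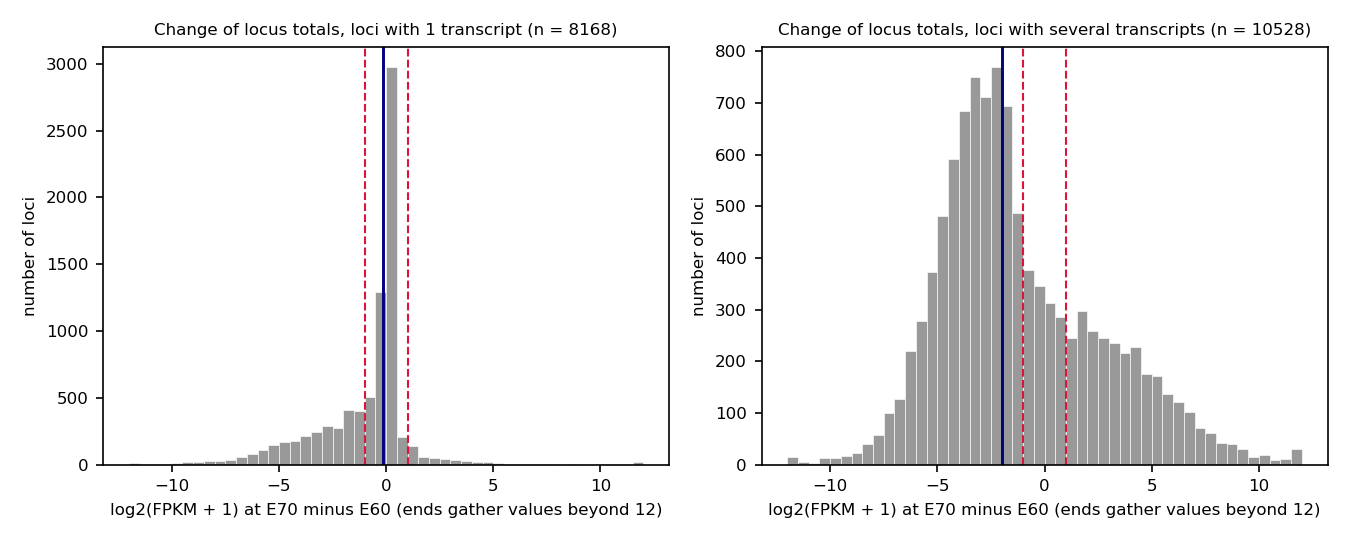
Histograms of the change in locus total, log2(FPKM + 1) at E70 minus E60, for the 8168 loci with 1 transcript and the 10528 loci with several transcripts, with the number of loci on the vertical axis. Dashed lines mark the 2-fold threshold and the solid line the median (-0.13 and -2.01); loci with 1 transcript gather near 0, and loci with several transcripts have a main body of falls and a long shoulder of rises.

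The classes differed in level as well as in direction. The median total of loci with 1 transcript was 0.211 FPKM at E60 and 0 at E70, and the upper quartile was 4.55 and 0.203 FPKM. Of these loci, 2492 were listed at 0 at both stages, 3130 only at E70, 540 only at E60, and 2006 were above 0 at both. Loci with several transcripts had a median of 24.6 FPKM at E60 and 1.93 FPKM at E70, but an upper quartile that was higher at E70, at 100.2 FPKM, than at E60, at 66.7 FPKM. Only 16 of them were listed at 0 at both stages, 2517 were listed at 0 only at E70, 21 only at E60, and 7974 were above 0 at both. The distribution of this class at E70 was thus wider at both ends.

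Large changes ran in both directions in the second class. A fall of 16-fold or more was found at 2355 loci with several transcripts and a rise of that size at 1258. At 64-fold or more the numbers came close, with 631 falls and 548 rises. In loci with 1 transcript, 304 fell and 42 rose by 64-fold or more. Where both stages were above 0, the share higher among changed loci was 17.4% with 1 transcript (218 higher, 1035 lower) and 40.9% with several (2743 higher, 3963 lower).

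Across loci, the Pearson correlation of log2(FPKM + 1) between E60 and E70 was 0.29 over the 8168 loci with 1 transcript and 0.46 over the 10528 with several. In the same order it was 0.070 and 0.45 over loci with at least 1 FPKM at E60 or E70, and 0.47 and 0.46 over loci above 0 at both stages, so that the class difference depends on which low loci are kept. The points share the pooled libraries and the assembly, and loci are not independent replicates.

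The direction of change varied with the number of transcripts assembled at a locus. With 2 transcripts, 11.3% of 3630 loci were higher and 76.5% lower, and the median change was -2.52. With 4 transcripts, 32.5% of 1793 loci were higher and 54.9% lower, with a median of -1.66. The shares were close at 5 transcripts, where 42.4% of 1024 loci were higher and 45.6% lower. With 8 or more transcripts, 63.3% of 430 loci were higher and 20.2% lower, and the median change was 2.21. Median totals in this last group were 63.9 FPKM at E60 and 444.3 FPKM at E70, whereas loci with 2 transcripts went from 13.4 to 0.249 FPKM. Loci with many transcripts were also longer, with a median span of 103860 bp at 8 or more transcripts and 19487 bp at 2, introns included. Transcript number, span and level moved together, and their separate parts were not tested.

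**Figure D2:**
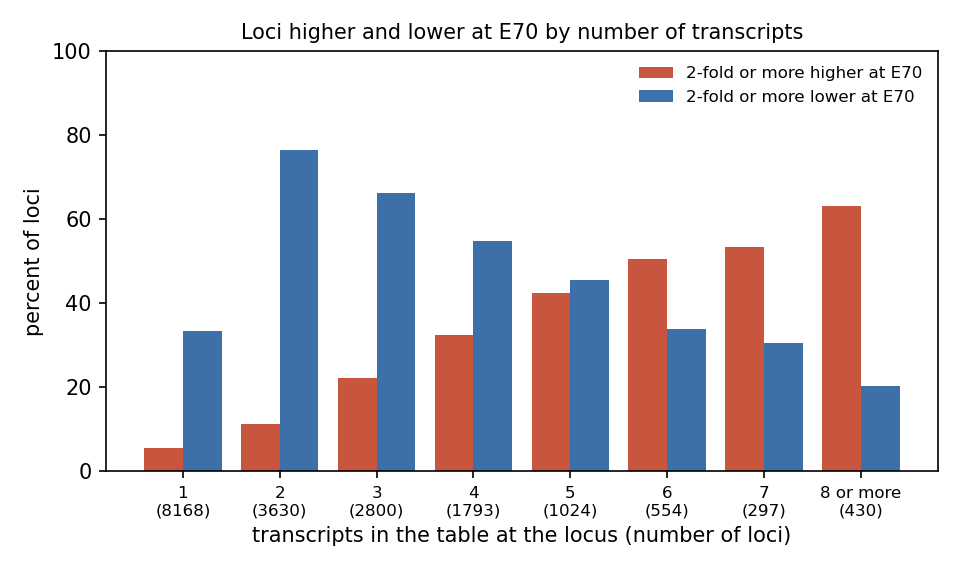
Percent of loci that were 2-fold or more higher (red) or lower (blue) at E70 than at E60, by the number of transcripts in the table at the locus, with the number of loci in brackets. From 2 transcripts on, the share higher climbs from 11.3% to 63.3% and the share lower drops from 76.5% to 20.2%, and the bars cross between 5 and 6 transcripts.

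The level at E50, a stage outside the comparison, differed between loci that rose and loci that fell. Loci with several transcripts that were higher at E70 had a median total of 224.3 FPKM at E50, 37.5 FPKM at E60 and 739.1 FPKM at E70. Those that were lower at E70 had medians of 0.700, 20.1 and 0.234 FPKM at the 3 stages in order. The groups were formed by the change from E60 to E70, so that their medians at those stages follow from the grouping, which E50 did not enter. Of the 2313 loci of this class with 100 FPKM or more at E50, 77.6% were higher and 11.6% lower at E70 than at E60. Of the 2138 that were listed at 0 at E50, 4.35% were higher and 89.8% lower. Of the 93 loci with 1 transcript at 100 FPKM or more at E50, 58.1% were higher and 16.1% lower, against 5.57% and 33.5% of the class. Of the 5096 listed at 0 at E50, 1.69% were higher and 30.3% lower, with a median change of -0.081, and the share lower was 46.2% at 1 to under 10 FPKM at E50. Loci at 100 FPKM or more at E50 thus had a larger share higher than their class in both classes, while a raised share lower among loci listed at 0 at E50 was seen only with several transcripts. E50 and E70 also shared a lower mapped share of reads than E60 in the study's figures, and its part here was not tested.

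Single transcripts and locus totals gave different pictures. Of the 37446 transcripts at loci with several, 5927 were 2-fold or more higher and 22862 lower, so that 20.6% of changed transcripts were higher, against 29.9% of changed locus totals. At 3642 loci (34.6% of the class) a transcript that was higher stood beside one that was lower. The total of these mixed loci was higher at 2442, lower at 377 and within 2-fold at 823. Put the other way, 88.6% of the loci with a higher total also held a transcript that was lower, whereas 5.84% of the loci with a lower total held one that was higher. Lower transcripts were far more common in the class. Loci with a higher total also held more transcripts, a mean of 4.56, against 3.10 with a lower total. The shares that these rates alone would give were not computed.

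The leading transcript, that with the highest FPKM of its locus, usually changed between stages. It was the same at both stages at 2501 of the 7974 loci above 0 at both (31.4%). The share was 50.3% at loci with 2 transcripts, near the even split that random leaders would give. It was 32.1% with 3, 22.4% with 4 and 13.6% with 8 or more. Leaders drawn at random would also repeat less often at loci with more transcripts. Neither the low share nor its decline is therefore a result about the loci. At E60 the leading transcript held a median of 63.8% of the locus total, and at E70 99.8%. On average 3.28 transcripts of these loci were above 0 at E60 and 2.09 at E70, of 3.84 listed. Over the whole class, 86.5% of transcripts were above 0 at E60 and 44.6% at E70.

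Gene names could be given to few loci, since the table does not pair transcripts with symbols. The study lists 12 genes beside a long intergenic non-coding RNA (lincRNA) by transcript identifier. It gives these pairs as negatively correlated on the same samples, with a heatmap between E50 and E60. The direction of the listed transcripts is therefore not independent evidence. All 12 listed gene transcripts were 2-fold or more lower at E70. Only the listed transcript carries the symbol here, and whether the others at its locus belong to the gene is not known. By locus total, 9 of the 12 loci were lower and 3 higher (75% and 25%, against 49.1% and 17.2% of all loci), with a median change of -3.49. Under the sum scaling 11 were lower and 0 higher, and after quantile normalization 4 were lower and 3 higher. Over the 8168 loci with 1 transcript, 4065 were lower and 134 higher under the sum scaling, and 1395 and 1704 after quantile normalization. Over the 10528 with several, 9101 were lower and 637 higher under the sum scaling, and 3831 and 3675 after quantile normalization.

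Among genes of the secretory and endocytic routes, 2 of 3 lay at a locus whose total rose while the listed transcript fell. Both rises came from transcripts with no symbol here. RPN1 encodes ribophorin I, a subunit of the complex that attaches glycans to new proteins in the endoplasmic reticulum. Its locus (WZSP scaffold 252, 1362692 to 1386210) totalled 383.1 FPKM at E50, 35.2 FPKM at E60 and 1508 FPKM at E70, a change of 5.38 that was 0.62, within 2-fold, under the sum scaling. The listed transcript fell from 34.7 to 1.08 FPKM, while another transcript of the locus was listed at 0 at E60 and had 1399 FPKM at E70. COG4, part of a complex that tethers vesicles to the Golgi, had a total of 94.5 FPKM at E60 and 704.5 FPKM at E70 (scaffold 405, 10726540 to 10761703), a change of 2.89 that turned to -1.89 under the sum scaling. Of the transcripts at the locus, the listed one went from 28.9 to 1.15 FPKM and another from 30.7 to 703.4 FPKM. AP2M1, a subunit of the adaptor that links cargo to clathrin, went from 937.8 to 151.3 FPKM over 5 transcripts (scaffold 331, 1657368 to 1666300), a change of -2.62 that was -0.15, within 2-fold, under the median scaling. A transcript marked as having too little data is listed at 0 at E70 in the row of this comparison and above 0 in another row. With the other row's value the change was 2.40, and without transcripts that failed or had too little data it was -2.84.

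The list holds 3 genes that act on lipids or membranes. ZDHHC18, an enzyme that attaches palmitate to proteins, is the only transcript of its locus (scaffold 197, 1487374 to 1518745) and went from 10.5 to 0.603 FPKM, a change of -2.84 that turned to 0.51 after quantile normalization. GGPS1, which makes the geranylgeranyl group added to small GTPases, went from 32.6 to 1.03 FPKM (scaffold 37, 2071131 to 2090079). TLCD2, a membrane protein with a TLC domain, went from 13.7 to 0.169 FPKM (scaffold 211, 6218745 to 6223984). The changes of GGPS1 and TLCD2, -4.05 and -3.65, stayed below 0 under every scaling run, but were within 2-fold after quantile normalization (-0.73 and -0.56). All 3 had under 3 FPKM at E50, from 0.274 to 2.74 FPKM, so that E60 was their highest stage.

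A further 4 genes of the list act on RNA. CNOT8, a subunit of the deadenylase that shortens poly(A) tails, is the only transcript of its locus (scaffold 36, 3576378 to 3596044) and went from 38.1 to 0.145 FPKM, a change of -5.09. RBM5, an RNA-binding protein that takes part in splicing, is also alone at its locus (scaffold 799, 638272 to 748654) and went from 42.9 to 3.40 FPKM, a change of -3.32. ADAT1, which deaminates an adenosine of a transfer RNA, went from 38.1 to 1.69 FPKM over 4 transcripts (scaffold 685, 378703 to 419012), a change of -3.86. The changes of these 3 stayed below 0 under every scaling run, but after quantile normalization those of ADAT1 (-0.71) and RBM5 (-0.62) were within 2-fold. SAMD4B, a relative of the fly translational repressor Smaug, went the other way, from 29.5 to 69.0 FPKM (scaffold 834, 223508 to 249987), a change of 1.20 that turned to -3.47 under the sum scaling. The listed SAMD4B transcript fell from 18.4 to 0.992 FPKM, and another at the locus, with no symbol here, rose from 0.383 to 65.0 FPKM.

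The other 2 genes are a transcription factor and a signalling ligase. NFE2L2, which switches on genes of the response to oxidative stress, went from 90.3 FPKM at E60 to 0.479 FPKM at E70 (scaffold 66, 7162631 to 7199446), a change of -5.95. All 4 transcripts at the locus were above 0 at E60, and the listed one held 40.7 FPKM. DTX3, a ubiquitin ligase of the Deltex family, which is tied to Notch signalling, went from 62.3 to 0.486 FPKM (scaffold 471, 1013202 to 1018834), a change of -5.41. Both stayed below 0 under every scaling run. Their E50 totals were 0.674 and 2.53 FPKM.

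The loci of the paired lincRNAs had mostly higher totals in the deposited values. Each holds several transcripts, 70 in all. By total 10 of 12 were higher at E70 (83.3%, against 26.2% of all loci with several transcripts), 0 were lower (against 61.3%), and the median change was 3.09. These totals include the lincRNAs of the listed pairs, which were chosen on the same samples. Without every transcript of the study's wider list of 450 lincRNAs, which takes a second transcript from the loci beside CNOT8, TLCD2 and SAMD4B, 6 were higher and 4 lower. Under the sum scaling 0 were higher and 9 lower, so that their direction depends on the scaling. In that setting 637 of all 10528 loci with several transcripts were higher and 9101 lower. The locus beside NFE2L2 went from 1478 to 69612 FPKM (scaffold 66, 7208993 to 7213190), a change of 5.56, and its listed lincRNA from 3.24 to 2854 FPKM. Of the E70 total, 58625 FPKM lay in a transcript marked as having too little data; without it the change of the locus was 3.71, and under the sum scaling it was 0.76, within 2-fold. The locus beside RPN1 (scaffold 252, 1392804 to 1520352) had 37.5 FPKM at E60 and 34.1 FPKM at E70, although its listed lincRNA went from 1.58 to 32.0 FPKM. There the gain of the lincRNA was offset by other transcripts, 1 of which went from 21.7 to 1.94 FPKM. All 12 of these loci held a transcript that was 2-fold or more higher and another that was lower. That was so at 34.6% of all loci with several transcripts, and the higher ones here include the listed lincRNAs. The median total of the 12 loci was 628.4 FPKM at E50, 107.3 FPKM at E60 and 588.7 FPKM at E70.

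The study's list of 450 lincRNAs, chosen on these samples for a change between stages, lies at 424 loci, of which 281 were higher at E70 (66.3%, against 17.2% of all loci) and 84 lower (19.8%, against 49.1%). The median total of these loci was 64.8 FPKM at E60 and 386.3 FPKM at E70, and the median change was 2.56. Under the sum scaling 47 were higher and 272 lower. In the same setting 134 of all 8168 loci with 1 transcript were higher and 4065 lower. For all 10528 loci with several transcripts the numbers were 637 and 9101. Only 31 of the 450 were the only transcript of their locus, and of those loci 10 were higher (32.3%, against 5.57% of loci with 1 transcript) and 20 lower (64.5%, against 33.5%). At the other 393 loci, 271 were higher (69.0%, against 26.2% of loci with several) and 64 lower (16.3%, against 61.3%). The lincRNA itself held a median of 7.37% of its locus total at E60 and 43.7% at E70. When the lincRNAs were left out of the totals, the 31 loci with no other transcript dropped out, and 180 loci were higher and 143 lower. In that setting 2665 of all loci with several transcripts were higher and 6531 lower. Among the 328 lincRNAs that were 2-fold or more higher, the locus total was higher for 269, lower for 15 and within 2-fold for 44.

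Septins are GTP-binding proteins that assemble into filaments and rings at the cell cortex, at the cleavage furrow of dividing cells and at the base of cilia. Their symbols had been turned into dates by a spreadsheet in the study's list and were read back here where the row carried a cell cycle term, which gave 13 loci. The list was available only in part and a September row without that term was left out, so that the family may not be complete. Of these, 4 were higher at E70 (30.8%, against 17.2% of all loci), 3 lower (23.1%, against 49.1%) and 6 within 2-fold. The median change was 0.29, and 9 of 13 lay above the median of all loci. The split was 1 higher and 8 lower under the sum scaling, and 8 higher and 3 lower under the median scaling. Over all 8168 loci with 1 transcript it was 134 and 4065, and 867 and 1904. Over all 10528 with several it was 637 and 9101, and 4079 and 4590.

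The septins with the highest deposited totals at E60, SEPT9 and SEPT7, were higher at E70, and neither was 2-fold higher under the sum scaling. SEPT9 had 2137 FPKM at E60 and 50591 FPKM at E70 (scaffold 14, 1184920 to 1308208), a change of 4.56 that turned to -0.23 under the sum scaling. Nearly all of both totals lay in 2 transcripts marked as having too little data (1265 and 862.2 FPKM at E60, 14750 and 35631 FPKM at E70), and without them the change was 4.28 between far lower totals. SEPT7, the core subunit shared by septin filaments, had 754.0 FPKM at E60 and 35307 FPKM at E70 (scaffold 177, 9347568 to 9423597), a change of 5.55 that was 0.75, within 2-fold, under the sum scaling. All 3 of its transcripts were 2-fold or more higher, the highest of them listed at 0 at E60 and at 26312 FPKM at E70. SEPT6 had 20.0 FPKM at E60 and 117.3 FPKM at E70 (scaffold 212, 2932098 to 2990916), a change of 2.49 that turned to -2.20 under the sum scaling. The E50 totals of SEPT9, SEPT7 and SEPT6 were 28324, 17210 and 219.7 FPKM, above those at E60. SEPT3, known for its expression in neurons, had 43.4 FPKM at E60 and 14087 FPKM at E70 (scaffold 1, 4190094 to 4208674), but the whole E70 value came from a transcript marked as having too little data, without which the change of 8.31 became -3.95.

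Other septins fell or stayed within 2-fold in the deposited values. SEPT2 went from 415.6 to 1.72 FPKM (scaffold 3060, 354707 to 389780), a change of -7.26, and all of it lay in a transcript other than the one that carries the symbol. SEPT4, with 23.7 FPKM at E60, was listed at 0 at E70 (scaffold 450, 862253 to 870464), and there too the transcript with the symbol was listed at 0 at both stages. Both totals stayed lower under every scaling run. SEPT11 went from 229.5 to 3.90 FPKM (scaffold 753, 1452541 to 1489774), a change of -5.56 that became 6.32 when the value of another row was used for the transcript with the symbol, which is listed at 0 here at both stages. The 3 septin totals that were lower thus rest on transcripts that share a locus with the named one. SEPT8 had 47.1 FPKM at E60 and 60.5 FPKM at E70, and SEPT10 67.9 and 55.2 FPKM, again in a transcript other than the one with the symbol. At the SEPT8 locus (scaffold 114, 239050 to 257903) the near-equal totals hid an exchange, in which 1 transcript went from 46.1 to 0 FPKM and another from 0.317 to 60.1 FPKM. SEPT12 was listed at 0 at both stages.

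MARCH proteins are ubiquitin ligases, most of which sit in membranes and mark other membrane proteins for removal, while MARCH7 and MARCH10 lack membrane-spanning segments. Their names were read back from dates in the same way, where a zinc binding or protein catabolism term was given, and 8 loci were found, with the same limit on completeness. Of these, 1 was higher at E70 (12.5%, against 17.2% of all loci), 4 were lower (50.0%, against 49.1%) and 3 were within 2-fold. These shares lie near those of all loci. After quantile normalization 2 were higher and 0 lower, and under the sum scaling 1 was higher and 6 lower. Over all 8168 loci with 1 transcript, 1704 were higher and 1395 lower after quantile normalization, and 134 and 4065 under the sum scaling. Over the 10528 with several, it was 3675 and 3831, and 637 and 9101. With the median scaling 3 MARCH loci were higher and 3 lower (867 and 1904 with 1 transcript, 4079 and 4590 with several). A pseudocount of 10 left 1 lower (1330 and 4158 in the classes), and a 4-fold threshold 2 (1927 and 5271).

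MARCH7 was the riser, from 34.5 FPKM at E60 to 1953 FPKM at E70 (scaffold 83, 2014382 to 2049565), a change of 5.78 that stayed above 0 under every scaling run. A transcript listed at 0 at E60 held 1951 FPKM of the E70 total, while another fell from 24.1 to 0.409 FPKM. MARCH5, a ligase of the outer mitochondrial membrane, went from 13.6 to 0.830 FPKM (scaffold 256, 3268939 to 3319057), a change of -2.99 that turned to 0.39 after quantile normalization. MARCH10 went from 8.78 to 0.177 FPKM, a change of -3.05 that turned to 0.020 under the same setting. MARCH6, a ligase of the endoplasmic reticulum, had 84.8 FPKM at E60 and 52.8 FPKM at E70 (scaffold 425, 163029 to 222583). Its leading transcript was at 61.8 FPKM at E60 and at 0.162 FPKM at E70, and a transcript listed at 0 at E60 had 25.0 FPKM at E70. MARCH1 and MARCH11, at 2.19 and 2.56 FPKM at E60, were listed at 0 at E70, and after quantile normalization their changes were within 2-fold (-0.36 and -0.48).

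**Figure D3:**
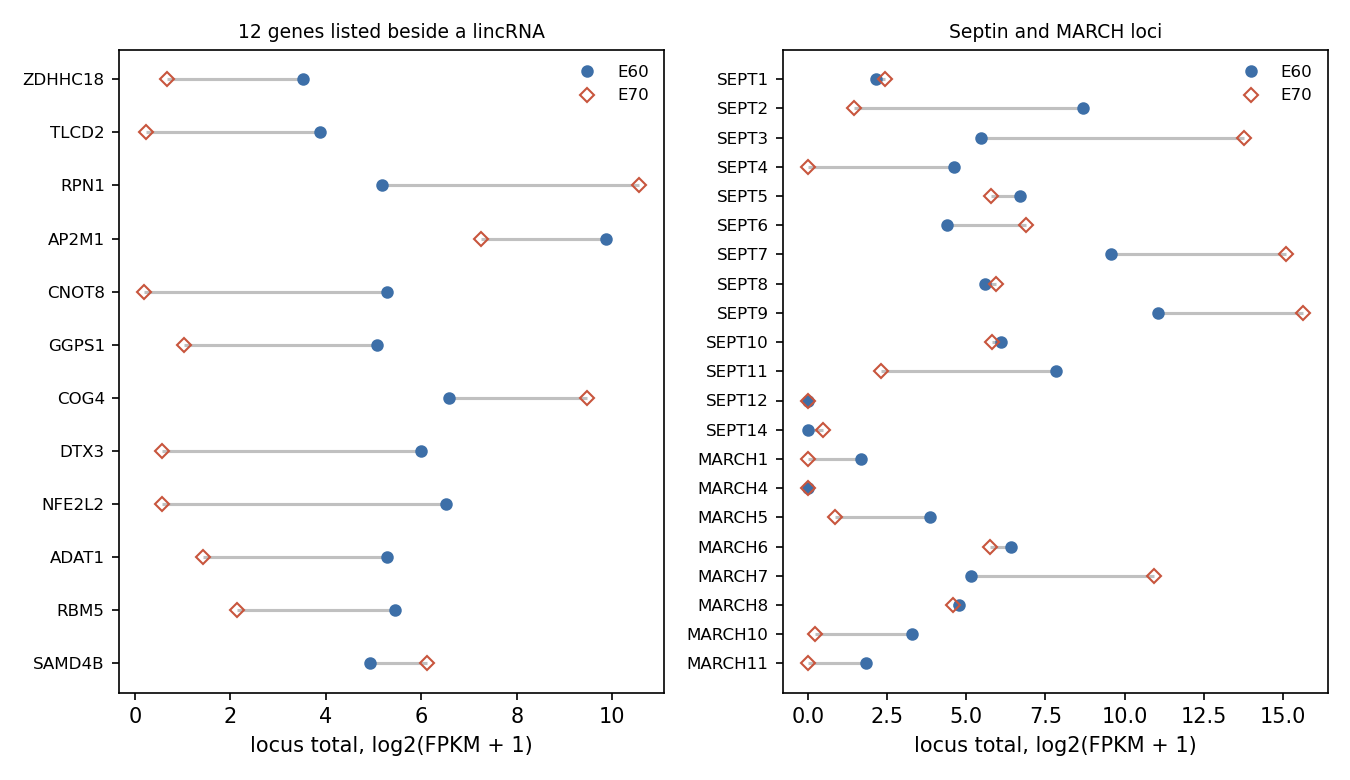
Locus totals on a log2(FPKM + 1) axis at E60 (filled circles) and E70 (open diamonds), 1 merged value each, for the 12 genes listed beside a lincRNA (left) and the 13 septin and 8 MARCH loci (right). As deposited, the loci of RPN1, COG4 and SAMD4B lie higher at E70 and those of the other 9 genes lower. The loci of SEPT3, SEPT6, SEPT7, SEPT9 and MARCH7 lie more than 2-fold higher. Of the loci past 2-fold, under the sum scaling COG4, SAMD4B, SEPT6 and SEPT9 turned lower, after quantile normalization ZDHHC18, MARCH5 and MARCH10 turned higher, and AP2M1, SEPT3 and SEPT11 turned with the handling of single transcripts; of those within 2-fold, SEPT1, SEPT5, SEPT8, SEPT10, MARCH6 and MARCH8 changed sign under at least 1 scaling.

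The largest changes were sought among the 717 loci with 1 transcript and the 5833 with several that had at least 1 FPKM at both stages, and none of them has a gene name here. Among loci with 1 transcript, the largest rise was at scaffold 507 (1164144 to 1166568), from 3.02 to 1911 FPKM with 2287 FPKM at E50. The 5 largest rises of the class ran from 6.21 to 8.89, at loci of 777 to 3629 bp. The largest fall was at scaffold 617 (829110 to 830202), from 7742 to 4.13 FPKM with 0.935 FPKM at E50, a change of -10.56. The 5 largest falls of the class ran from -10.56 to -7.33, and at E50 those loci had at most 5.65 FPKM.

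Among loci with several transcripts, the 5 largest rises ran from 14.20 to 19.95 and ended between 741244 and 6010397 FPKM at E70. The first, at scaffold 247 (4572687 to 4626220), went from 1.97 FPKM at E60 to 3010000 FPKM at E70, with 786299 FPKM at E50. Whether E70 totals of this size reflect amounts of RNA was not tested, so these rises describe the deposited values only. The largest fall, at scaffold 3798 (13746 to 21752), went from 36075 to 1.77 FPKM, with 16631 FPKM at E50, a change of -13.67. It holds a transcript marked as having too little data, and without transcripts marked so or as failed its change was -8.70, smaller than the -11.83 of the next fall. In that setting 2 others of the 5, -9.58 and -9.28, became -5.82 and -2.73. The 5 largest falls of this class began between 3145 and 36075 FPKM at E60.

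The highest total at E70 was 35701353 FPKM at scaffold 188 (567440 to 569240), a locus of 1801 bp with 2 transcripts that also had the second highest total at E60, 325468 FPKM. The next at E70 was a locus of 332 bp with 1 transcript, listed at 0 at E60 and at 9020000 FPKM at E70 (scaffold 36, 2209393 to 2209724). It alone made up most of the 10314730 FPKM to which the loci with 1 transcript summed at E70. These highest E70 totals are given as deposited, and whether they reflect amounts of RNA was not tested. The highest total at E60, 356278 FPKM at scaffold 2642 (324668 to 340207), was listed at 0 at E70 and at E50.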

How the data were processed

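The authors pooled RNA per stage, sequenced it, aligned the reads to the WZSP (Wuzhishan pig) assembly with TopHat, assembled transcripts with Cufflinks and compared stages with Cuffdiff. The submitters' processing notes name Cufflinks 1.0.3 and the study's methods a later version, and which of them made the table is not known here. The values used are the FPKM that the authors deposited, 1 per transcript and stage, taken from the rows that compare E60 with E70. The table's own log2 fold change, test statistic, p-value and q-value hold the authors' comparison of stages and were not used.

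FPKM was summed over transcripts with the same locus, and changes were taken on log2(total + 1). The pseudocount was 1 FPKM and the threshold 2-fold. No filter was applied. Locus starts were converted to count from 1. With 1 value per stage no SD and no test was computed. E50 totals are given beside the comparison only.

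Named loci were the 12 genes and lincRNAs of the study's list of pairs, septin and MARCH loci with a fitting ontology term, the 5 largest rises and 5 largest falls per class among loci with at least 1 FPKM at both stages (the first is printed, the rest as ranges), and the 5 highest totals per stage, of which 3 positions are printed. Tooth genes and cell type markers were not analysed: the deposited table has no symbols, and the part of the study's list of symbols available here names none of them. Members and lists were chosen with earlier results of these data known.

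Alternatives were other pseudocounts, filters, scalings, a 4-fold threshold, the highest transcript in place of the sum, and other handling of single transcripts. The calculation of totals, calls and scalings was tested on simulated data. Python 3.11.15, numpy 2.4.6, pandas 2.3.3 and matplotlib 3.10.9 were used.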

Additional observations from a re-analysis of the deposited data

How the results depend on the processing

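The sums, shares and counts rest on 1 merged value per stage, so that leaving out a replicate was not possible. No paired analysis was possible because the table gives no value per sample. In all, 12 alternatives were planned and 1, a sum scaling without the 10 highest loci of each stage, was chosen after seeing the data. Unless a value says otherwise, the cause of a move was not tested. Classes were kept as counted on the whole table. Loci with 1 transcript, of which 455 were higher and 2735 lower (14.3% higher of those changed), gave 882 higher (18.3%) with a pseudocount of 0.1, 180 higher and 1330 lower (11.9%) with a pseudocount of 10, 218 higher and 1035 lower (17.4%) when only loci above 0 at both stages were kept, which leaves fewer loci, and 259 higher (11.8%) with a 4-fold threshold. Quantile normalization gave 1704 higher and 1395 lower and turned the share to 55.0%. That setting raises low E70 totals, as described above. SEPT14, a locus with 1 transcript that went from 0 to 0.379 FPKM, got a change of 2.90 there, so that the 1704 include such loci. Median scaling gave 867 higher (31.3%), sum scaling 134 higher (3.19%) and the added sum scaling 182 higher (4.65%). Loci with several transcripts, of which 2756 were higher and 6452 lower (29.9%), gave 4158 lower (38.6%) with a pseudocount of 10, 3963 lower (40.9%) when only loci above 0 at both stages were kept, 3831 lower (49.0%) after quantile normalization, a share of 47.1% with median scaling, 637 higher (6.54%) with sum scaling and 1065 higher (11.2%) with the added sum scaling. The share was 33.4% with the highest transcript in place of the sum, 28.8% without transcripts that failed or had too little data, and 29.0% without the listed lincRNAs.

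After quantile normalization the median change was 0.71 for loci with 1 transcript and 0.55 for all loci. The first is the value that this setting gives by construction to a locus listed at 0 at both stages, so that it shows no rise, and the second counts such loci too. That setting also turned MARCH10 to 0.020, MARCH5 to 0.39, ZDHHC18 to 0.51 and the lincRNA loci beside ADAT1, DTX3 and RBM5 to -0.0046, -0.69 and -0.10. Sum scaling turned COG4 to -1.89, SAMD4B to -3.47, SEPT6 to -2.20, SEPT9 to -0.23 and the lincRNA loci beside ADAT1 to -1.53, AP2M1 to -2.56, COG4 to -1.83, DTX3 to -3.62, GGPS1 to -0.42, RBM5 to -1.55, SAMD4B to -0.34, TLCD2 to -1.30 and ZDHHC18 to -3.43. The added sum scaling turned COG4 to -0.58, SAMD4B to -2.20, SEPT6 to -0.92 and the lincRNA loci beside ADAT1 to -0.22, AP2M1 to -1.26, COG4 to -0.53, DTX3 to -2.32, RBM5 to -0.24 and ZDHHC18 to -2.17. With values from another comparison's row, AP2M1 became 2.40 and SEPT11 6.32, through transcripts listed at 0 in 146 cases at E70 and in 0 cases at E60. Without transcripts that failed or had too little data SEPT3 became -3.95. Without every transcript of the list of 450 lincRNAs the lincRNA loci beside AP2M1, DTX3 and ZDHHC18 became -5.88, -0.51 and -4.63, that beside CNOT8, which loses 2 transcripts, went from 0.96 to -5.01, and that beside RPN1 from -0.13 to -3.56. The lincRNA locus beside SAMD4B, which also loses 2 transcripts, went from 4.46 to 0.31, within 2-fold. Of 60 named loci past 2-fold, 57 kept direction and threshold with median scaling, 48 after quantile normalization and 44 with sum scaling.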

Other observations

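Short loci stood out among the rises of the loci with 1 transcript. The 455 that were higher at E70 had a median span of 2425 bp, against 7201 bp for the 2735 that were lower and 8407 bp for the 4978 within 2-fold. Among loci with several transcripts those higher had the longest median span, 35945 bp, against 29112 bp for those lower and 29501 bp for those within 2-fold. Exon lengths were not used here, so that the span is that of the locus and not of its RNA.

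Neighbouring loci did not share their changes by much. Over 17406 pairs of adjacent loci on a scaffold, the Pearson correlation of the change was 0.02, and over the 6221 pairs in which both held several transcripts it was 0.01. It was 0.15 over the 3520 pairs in which both held 1 transcript, a class in which most changed loci were lower. Pairs share scaffolds and libraries, and each locus enters up to 2 pairs, so that these values are a description only.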
